A study of Mus musculus with 8 samples.

Results

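Alarmins and antimicrobial peptides are the first chemical defence of skin, made by keratinocytes, the main cells of the epidermis, and by neutrophils, the white blood cells that arrive first at a wound. The genes described here were a list of 8: S100a8, S100a9, S100a7a, Lcn2, Defb3, Defb4, Camp and Il1b. Each probe set (a group of array probes for 1 transcript) whose annotation gave exactly 1 of these symbols was taken. This found 7 probe sets, 1 for each of 7 genes, out of 45037 probe sets and 18193 genes. S100a7a was not analysed here, since no probe set carried it as its single symbol.

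The arrays measured total RNA of frozen, powdered dorsal skin from hairless female mice of the strain Hos:HR-1, which were 10 weeks of age at sampling. For 1 week, collagen mice ate AIN-93G, a purified rodent diet, to which 2.0 g per 100 g of a hydrolysate of fish-scale collagen, that is, its peptide fragments, had been added, and control mice ate AIN-93G alone. The series holds 4 arrays per diet, which the labels call biological replicates, out of 16 mice kept 4 to a cage. Which mice and cages gave the arrays is not stated, so animals of 1 diet may have shared a cage. Of 16 keratinocyte identity genes 15 lay at or above 8.19, the median level of all probe sets, against 11593 of 18186 genes other than the members. So did 18 of 18 monocyte and macrophage markers, 20 of 21 skeletal muscle markers and 15 of 16 hair follicle keratins. This count alone thus does not set keratinocytes apart from the other cells of skin samples. All values below are on the log2 scale that the authors deposited, and n = 4 arrays per diet. In whole skin, fewer cells of a type and less RNA per cell cannot be told apart.

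S100a8 and S100a9 encode small calcium-binding proteins that pair into calprotectin, which binds zinc and manganese and signals danger to nearby cells. Lcn2 encodes lipocalin 2, which captures the iron carriers of bacteria. Defb3 and Defb4 encode beta-defensins, and Camp the cathelicidin peptide, which damage microbial membranes. Il1b encodes interleukin 1 beta, a cytokine that starts inflammation and raises several of the other genes in keratinocytes. In the RefSeq gene table of GRCm38.p6, no protein-coding gene lies between S100a8 and S100a9 or between S100a7a and S100a8 on chromosome 3.

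The promoters of S100a8, S100a9 and Il1b are shown because S100a8 with S100a9 and S100a9 with Il1b had the highest correlations over the arrays. Each runs from 250 bases before to 50 bases after the RefSeq start in GRCm38.p6 and covers 300 bases, and capitals mark TATAAA, a core promoter motif. S100a8 lies at chr3:90668821-90669120 on the plus strand, S100a9 at chr3:90695672-90695971 on the minus strand, and Il1b at chr2:129371090-129371389 on the minus strand.
S100a8: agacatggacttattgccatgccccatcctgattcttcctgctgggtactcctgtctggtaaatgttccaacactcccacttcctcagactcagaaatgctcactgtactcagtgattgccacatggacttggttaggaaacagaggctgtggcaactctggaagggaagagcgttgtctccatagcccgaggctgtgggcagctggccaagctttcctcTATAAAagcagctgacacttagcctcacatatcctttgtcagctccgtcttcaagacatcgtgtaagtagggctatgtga
S100a9: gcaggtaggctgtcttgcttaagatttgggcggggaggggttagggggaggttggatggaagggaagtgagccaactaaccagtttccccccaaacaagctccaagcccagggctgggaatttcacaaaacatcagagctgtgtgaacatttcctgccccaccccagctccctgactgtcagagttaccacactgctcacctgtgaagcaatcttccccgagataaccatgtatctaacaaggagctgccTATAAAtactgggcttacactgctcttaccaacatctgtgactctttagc
Il1b: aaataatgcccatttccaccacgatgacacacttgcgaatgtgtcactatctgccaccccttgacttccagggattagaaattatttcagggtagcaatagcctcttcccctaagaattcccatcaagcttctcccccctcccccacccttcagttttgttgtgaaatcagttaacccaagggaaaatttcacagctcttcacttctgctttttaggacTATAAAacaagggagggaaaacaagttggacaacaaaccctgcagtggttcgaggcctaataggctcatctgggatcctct
TATAAA began 30 bases before the start in S100a8, 31 bases before it in Il1b, and at the annotated start itself in S100a9. It was found on either strand in 13.6% of 32851 promoters of this length. The same 3 windows held no TTGCNNCAA, a C/EBP motif (2.08% of promoters), and no NF-kB motif in the loose form GGG, any 5 bases, CC (50.8%), both strands searched. No match says only that these letters are not in this window.

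The deposited values hardly varied between arrays, and against that background S100a8 and S100a9 were among the most variable probe sets. The range over the 8 arrays was 0.0669 for S100a9, rank 50 of 45037, and 0.0652 for S100a8, rank 54. Over all probe sets the median range was 7.36e-06, and 65 probe sets had one over 0.05. Il1b had a range of 0.00478 (rank 492), Lcn2 of 0.00193 (rank 899) and Camp of 0.00102 (rank 1376). Defb4, with 3.98e-05, and Defb3, with 1.03e-05, lay in the body of the distribution, at rank 9806 and 19400. Among probe sets of similar level, between 90.7% (Defb3) and 99.9% (S100a9) had a smaller range than the member. No source read for this work states why ranges are this small and this unequal, so differences are left on the deposited scale and not turned into fold changes.

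**Figure D1:**
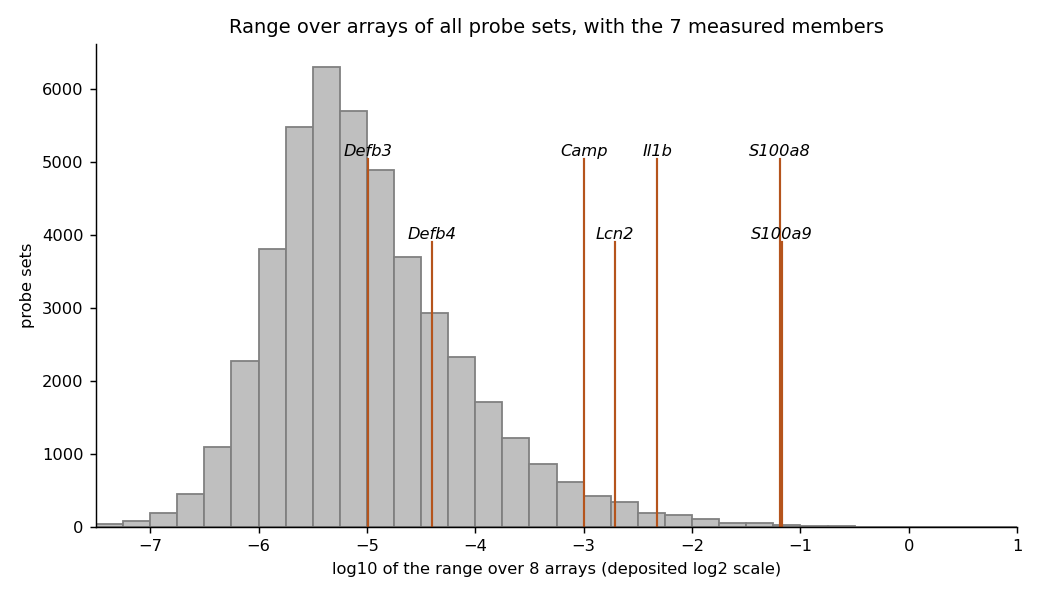
Histogram of the range over the 8 arrays (x axis, log10 of the range on the deposited log2 scale) for all probe sets (y axis, number of probe sets), with the 7 measured members as vertical lines. S100a8 and S100a9 lie at the far right, at 0.0652 and 0.0669, while Defb3 lies at 1.03e-05.

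The diet comparison asks whether 1 week of collagen hydrolysate changed these genes in skin. None of the 7 passed the test, and none separated the diets without overlap. By limma's moderated test, adjusted over all 45037 probe sets, 0 of 7 members had an adjusted p under 0.05. The background is 0% of all probe sets, where the smallest adjusted p was 0.586. At unadjusted p under 0.05 there were also 0 of 7 members, against 3.62% of 18193 genes, and 0 of 7 members had no overlap, against 2.02% of genes. On the deposited scale 6 members were higher and Lcn2 was lower with collagen, all within their spread. Each member's adjusted p was 1.00 to 3 digits, and the exact permutation test over 70 assignments of the arrays, two-sided, could not go below p = 0.0286.

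The 2 calprotectin genes had their widest values within the collagen group. S100a8 read 9.936, 9.919, 9.937 and 9.984 in collagen 1 to 4, against 9.952, 9.941, 9.940 and 9.941 in control 1 to 4. Both the highest and the lowest S100a8 value were thus in collagen-fed mice, with all 4 control arrays between them. The means were 9.9438 ± 0.0280 with collagen and 9.9433 ± 0.0057 in controls (SD, n = 4 each), differing by 4.66e-04 ± 0.0137 (SE), which is 0.0231 of the within-group SD (exact permutation p = 1). Without collagen 4 this difference was -0.0129 ± 0.0057 (limma unadjusted p = 0.0687, adjusted p = 0.68). This probe set is of the type marked _s_at, which on this array family can share probes with related transcripts.

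S100a9 read 9.460, 9.442, 9.463 and 9.508 in collagen 1 to 4, against 9.462, 9.457, 9.461 and 9.474 in control 1 to 4. The order at the ends was the same as for S100a8, with collagen 4 highest and collagen 2 lowest. The means were 9.4681 ± 0.0285 with collagen and 9.4634 ± 0.0071 in controls (SD), differing by 0.00466 ± 0.0141 (SE), which is 0.225 of the within-group SD (exact permutation p = 0.829). Without collagen 4 the difference was -0.00878 ± 0.0066 (limma unadjusted p = 0.236). The SD was 0.0280 against 0.0057 for S100a8 and 0.0285 against 0.0071 for S100a9, collagen against control, and this contrast of spreads was not tested.

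Il1b, the cytokine of the list, read 9.2714, 9.2690, 9.2704 and 9.2738 in collagen 1 to 4, against 9.2693, 9.2692, 9.2698 and 9.2728 in control 1 to 4. Replicate 4 was the highest array of each diet, and the groups overlapped over most of their range. The difference was 8.47e-04 ± 0.00126 (SE), or 0.455 within-group SD (exact permutation p = 0.543), and -2.91e-05 without collagen 4.

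Lcn2 was the 1 member lower with collagen. It read 9.4131, 9.4135, 9.4126 and 9.4143 in collagen 1 to 4, against 9.4133, 9.4140, 9.4141 and 9.4146 in control 1 to 4. Collagen 1 and collagen 3 lay below all controls, and the other collagen arrays lay within the control range. The difference was -6.11e-04 ± 4.28e-04 (SE), or -0.97 within-group SD (limma unadjusted p = 0.199, exact permutation p = 0.257). Its sign stayed negative under all 15 alternatives run. Without collagen 4 it was -9.18e-04 (limma unadjusted p = 0.0487, adjusted p = 0.655).

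The 3 peptides proper, Camp, Defb3 and Defb4, lay below the median level of all probe sets. Signal over background is unknown here, so it is unknown whether their probe sets measured RNA. Camp read 7.9152, 7.9154, 7.9155 and 7.9162 in collagen 1 to 4, against 7.9161, 7.9152, 7.9155 and 7.9153 in control 1 to 4. Collagen 4 and control 1 stood above the other 6 arrays, 1 in each diet, and the difference was 6.16e-05 ± 2.89e-04 (SE; exact permutation p = 0.686). Defb3 ranged from 7.304411 to 7.304421 with collagen and from 7.304411 to 7.304419 in controls, with the same 2 arrays on top (difference 3.99e-07 ± 2.83e-06, exact permutation p = 0.857). Defb4 ranged from 7.772699 to 7.772739 with collagen and from 7.772712 to 7.772733 in controls (difference 1.32e-06 ± 9.42e-06, exact permutation p = 0.886). Its lowest and highest arrays were collagen 1 and collagen 3, so it did not follow the others.

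**Figure D2:**
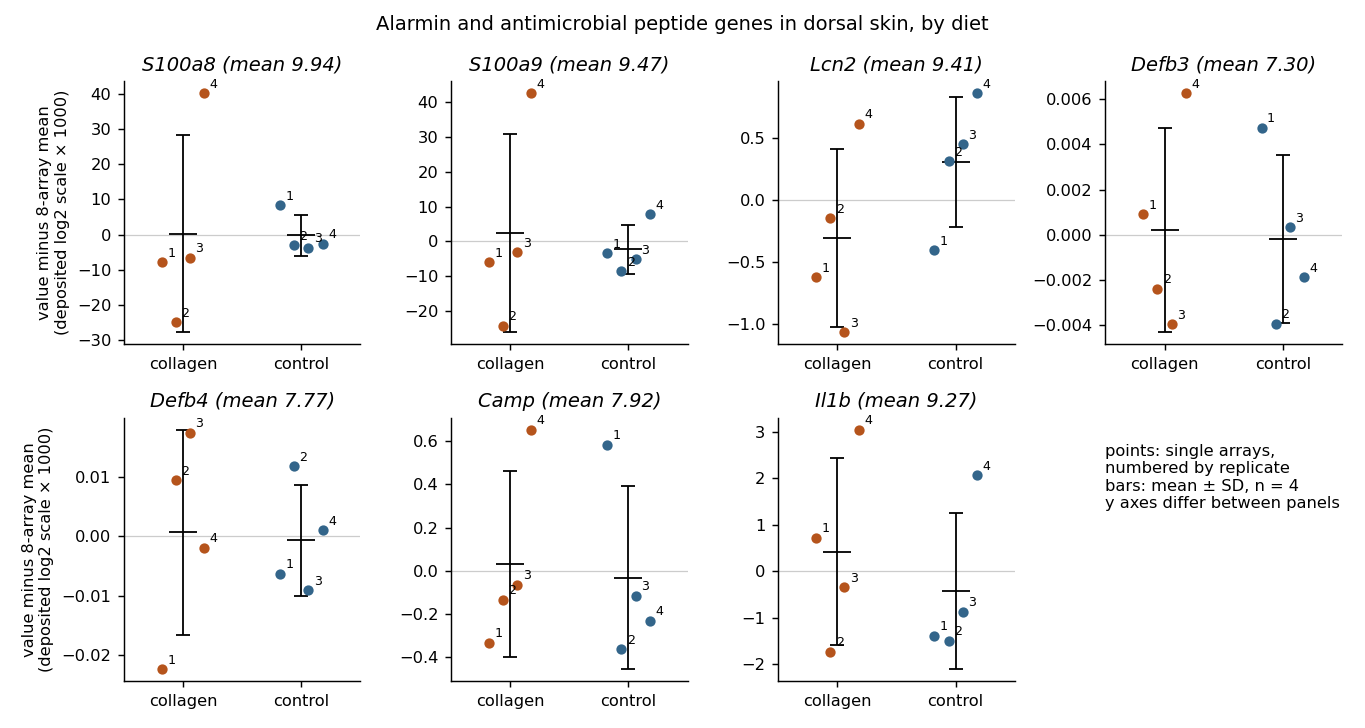
Value of each array minus the gene's mean over the 8 arrays (y axis, deposited log2 scale times 1000, its span differing between panels) for the 7 members, collagen left of control. Points are arrays numbered by replicate and bars are the mean ± SD of 4 arrays. Collagen 4 is the top point in 5 panels (S100a8, S100a9, Defb3, Camp and Il1b), and the diets overlap in each.

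Collagen 4 held the highest value of 5 of the 7 members. Collagen 2 held the lowest value of 3 (S100a8, S100a9 and Il1b). Of the 21 pairs of members, 15 had a Pearson r above 0 over the 8 arrays, and 11 had one without collagen 4. The pair with the smallest p was S100a9 and Il1b, with r = 0.859 (exact permutation p = 0.00166, adjusted over 21 pairs p = 0.0349) and Spearman's rho = 0.833 (exact permutation p = 0.0154, adjusted p = 0.293). On deviations from the diet means r was 0.861 (exact permutation p = 0.0156, adjusted p = 0.168). Without collagen 2 and collagen 4, the 2 arrays farthest from the median of S100a9, r was 0.789 over 6 arrays (exact permutation p = 0.075), and without collagen 4 alone it was 0.737 (p = 0.0724 by exact permutation).

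S100a8 and S100a9 had the highest r of all pairs, 0.941 (exact permutation p = 0.00531, adjusted p = 0.0557), with rho = 0.714 (exact permutation p = 0.0576, adjusted p = 0.403). Within diets r was 0.947 (exact permutation p = 0.0243, adjusted p = 0.168). Without collagen 2 and collagen 4 it was 0.0938 (exact permutation p = 0.799), so the relation rests on those arrays. S100a9 ranked 15 among the correlates of S100a8 in 18192 other genes, and S100a8 ranked 16 among those of S100a9.

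S100a8 also had r = 0.768 with Defb3 (exact permutation p = 0.0126) and 0.763 with Camp (exact permutation p = 0.0189), and Camp had 0.842 with Defb3 (exact permutation p = 0.02), each with an adjusted p of 0.0839. Their rho was 0.548 for S100a8 with Defb3 (exact permutation p = 0.171) and 0.476 for both pairs with Camp (exact permutation p = 0.243). Without collagen 2 and collagen 4, the arrays farthest from the median of S100a8, r was 0.668 with Defb3 (exact permutation p = 0.164) and 0.865 with Camp (exact permutation p = 0.0917). Between Camp and Defb3, r was 0.719 without collagen 4 (exact permutation p = 0.0837) and -0.124 without collagen 4 and control 1 (exact permutation p = 0.803), so that relation rests on those 2 arrays. Lcn2 followed the calprotectin genes less closely, with r = 0.367 to S100a8 (exact permutation p = 0.401) and 0.441 to S100a9 (exact permutation p = 0.281). Defb4 had a negative r with each of the other 6 members, from -0.592 (Defb3, exact permutation p = 0.124) to -0.0708 (Lcn2, exact permutation p = 0.868). With Defb3 its rho was -0.786 (exact permutation p = 0.0279, adjusted p = 0.293). Without collagen 4 and control 1, the arrays farthest from the median of Defb3, their r was -0.963 (exact permutation p = 0.00139, not adjusted). That p is the smallest that the 720 orders of 6 arrays allow. Without collagen 4 alone their r was -0.736 (exact permutation p = 0.051). Both genes lay below the median level, so it is unknown whether these values measured RNA.

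**Figure D3:**
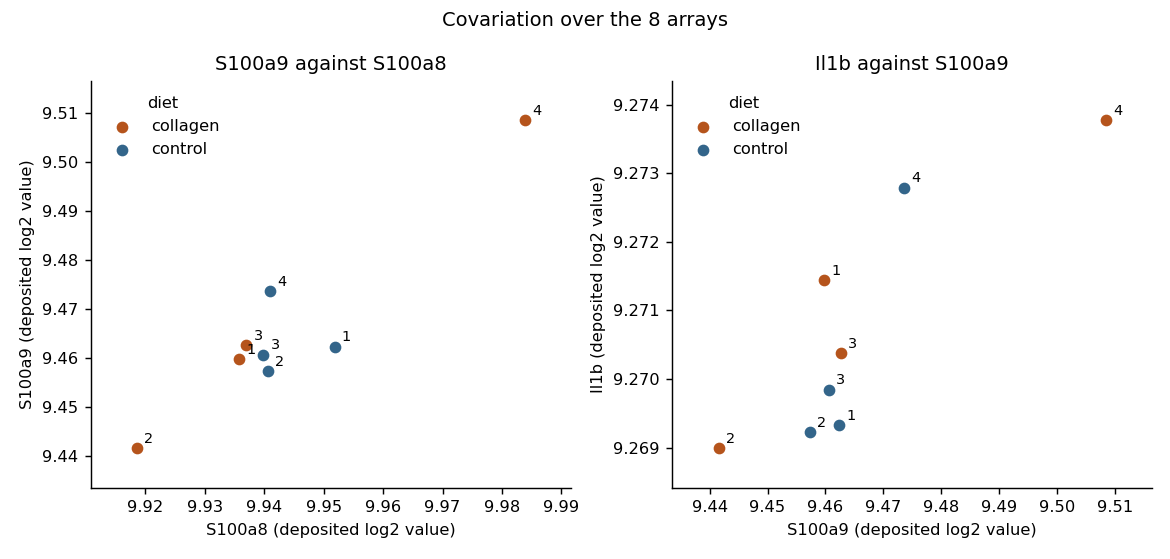
Deposited log2 values of S100a9 against S100a8 (left) and of Il1b against S100a9 (right), 1 point per array, numbered by replicate and coloured by diet. Collagen 4 lies at the upper right and collagen 2 at the lower left of both panels, and the other 6 arrays of the left panel show little relation (r = 0.0938).

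Among genes at or above the median level, those with the values most like S100a8 over the 8 arrays by Pearson's r were Skap2 (0.96), Zfp526 (0.958), Rbm5 (0.948), Crlf2 (0.948) and Bgn (0.945). Bgn encodes biglycan, a proteoglycan of the dermal matrix, and Crlf2 a receptor chain for the cytokine TSLP. For S100a9 they were the noncoding RNA gene BC018473 (0.98), Fam170b (0.967), Adcy6 (0.949), Cant1 (0.948) and Ccdc88b (0.945). For Il1b they were Adam8, a metalloprotease of leukocytes (0.963), C1qtnf12 (0.963), Slc7a10 (0.952), Sec11a (0.947) and Chst1 (0.943), and for Lcn2 Creld1 (0.967), Plekhf1 (0.959), Pfkl (0.949), Trp53rka (0.946) and Gabarap (0.941). These were picked for their r out of the genes at or above the median level, and their r carries no test.

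Collagen 4, the array that held most of the members' highest values, also held the highest values of many markers of T cells, macrophages and neutrophils. That was so for 8 of 9 T cell and NK cell markers, 13 of 18 monocyte and macrophage markers and 14 of 27 neutrophil markers, against 17.8% of all genes. It was so for 1 of 9 mast cell and basophil markers, 0 of 16 keratinocyte identity genes, 0 of 21 skeletal muscle markers and 0 of 16 hair follicle keratins. As a mean z (each gene's distance from its 8-array mean in SD, averaged over the list), T cell and NK cell markers scored 1.73 in collagen 4, -0.772 to -0.53 in the other collagen arrays and -0.182 to 0.229 in controls. Neutrophil markers scored 1.18 in collagen 4, -0.508 to -0.154 in the other collagen arrays and -0.331 to 0.288 in controls. Their part in the members' values was not tested.

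The median r of the 27 neutrophil markers was 0.551 with S100a8 and 0.664 with S100a9, against 0.0878 and 0.101 over all genes. Positive with S100a9 were 24 of them, and Padi4, Stfa3 and Mpo were negative. Among the 4 with the smallest diet p, Trem1, an activating receptor of neutrophils and monocytes, had r = 0.814 with S100a9, and Ncf1, a subunit of the oxidase that makes superoxide, had 0.671. Mmp9, a protease stored in neutrophils, had 0.17, and Mpo, myeloperoxidase, -0.193. Without collagen 4 the median r of this list was 0.038 with S100a8 and 0.216 with S100a9, against 0.0277 and 0.0474 over all genes.

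All 18 monocyte and macrophage markers had a positive r with S100a8, with a median of 0.593 (0.368 without collagen 4). Cd68, a lysosomal macrophage protein, had 0.612, the complement chains C1qb and C1qc had 0.584 and 0.56, and the scavenger receptor Cd163 had 0.409. The 9 T cell and NK cell markers had a median of 0.778 with S100a8 (0.274 without collagen 4). Cd3g of this list, which encodes a CD3 subunit of the T cell receptor complex, had 0.926. Of 16 keratinocyte identity genes 15 had a negative r with S100a8, with a median of -0.498 (-0.649 without collagen 4). Mast cell and basophil markers had a median r of -0.0797 with S100a8, 0.213 with S100a9 (8 of 9 positive) and 0.61 with Il1b (9 of 9 positive).

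**Figure D4:**
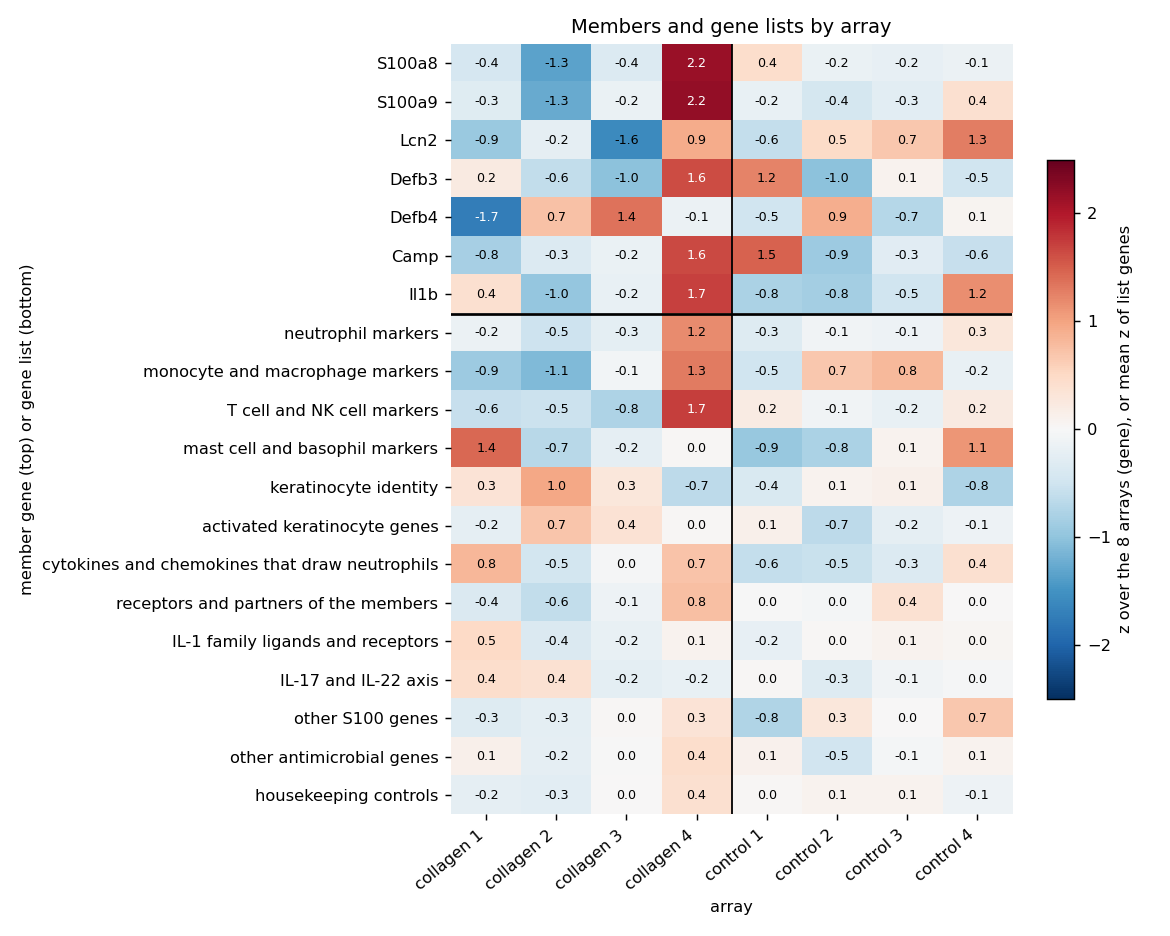
Values of the 7 members as z over the 8 arrays (upper rows) and of 13 gene lists as the mean z of their genes (lower rows), with collagen arrays left of control arrays. The column of collagen 4 reads 2.2 for S100a8 and S100a9 and 1.7 for T cell and NK cell markers. It is below 0 for Defb4 (-0.1), keratinocyte identity (-0.7) and the IL-17 and IL-22 axis (-0.2).

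By diet, the genes around the members, tested in the same limma fit, gave 0 calls at adjusted p under 0.05 by limma in all 16 lists (251 of 312 listed genes measured, members left out). Beside the lists, 52.9% of all genes were higher with collagen (48.8% without collagen 4), with a median t of 0.0675. Of 14 genes in a list of cytokines and chemokines that draw neutrophils, which also held the prostaglandin synthase gene Ptgs2, 13 were higher (10 without collagen 4) with a median t of 0.705. Only 7 of the 14 lay at or above the median level, and whether the others measured RNA is unknown. Cxcl3, a neutrophil chemokine, differed by 0.0120 ± 0.00304 (SE, unadjusted p = 0.00639) and was the 1 gene of this list without overlap, against 2.02% of all genes. Cxcl2, a close relative of it, differed by 0.00698 ± 0.00428 (unadjusted p = 0.15), Tnf by 1.42e-05 (unadjusted p = 0.17) and Cxcl1 by 0.00608 (unadjusted p = 0.552).

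Of 22 genes in a list of activated keratinocyte genes, meant to mark wounded or inflamed epidermis, 17 were higher, with and without collagen 4 (median t 0.697). The list also held Ivl, which is in the keratinocyte identity list too. What these genes say about the state of the epidermis was not tested. Krt6b read 10.035, 10.033, 10.044 and 10.044 in collagen 1 to 4, against 10.026, 10.011, 10.031 and 10.016 in control 1 to 4. Its difference of 0.0180 ± 0.00531 (SE) had an unadjusted p of 0.0129 by limma. Krt16, its usual partner in activated epidermis, differed by 1.37e-04 ± 5.45e-05 (unadjusted p = 0.043 by limma). These were the 2 genes of this list without overlap between diets, against 2.02% of all genes. Krt6a differed by 5.12e-05 (unadjusted p = 0.0527) and Ivl by 4.16e-04 (unadjusted p = 0.114). The list's median r with S100a8 was -0.162.

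The cytokine axes known to act on these genes were counted next. Of 20 genes of the IL-17 and IL-22 axis 13 were higher (median t 0.329). Il20ra, a receptor chain for IL-20 family cytokines, differed by 1.71e-04 ± 5.31e-05 (unadjusted p = 0.0162 by limma). It was the 1 gene of this list without overlap, against 2.02% of all genes. Of 20 IL-1 family ligands and receptors 12 were higher (median t 0.123), and those with the smallest p were Traf6 (3.31e-06, unadjusted p = 0.291), Sigirr, Il33 and Myd88.

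Receptors and partners of the members were higher in 7 of 18 (median t -0.143), with 0 at unadjusted p under 0.05. Tlr4, which senses calprotectin, differed by -2.26e-06 (unadjusted p = 0.911), and Ager, the RAGE receptor, by -8.48e-06 (unadjusted p = 0.266) at a level below the median. Slc22a17, a lipocalin 2 receptor, differed by -1.02e-06 (unadjusted p = 0.242), and Ccr6, the chemokine receptor that beta-defensins engage, by -9.53e-06 (unadjusted p = 0.36).

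Of 11 other S100 genes 4 were higher (median t -0.0327), and the smallest p was that of S100a1, which differed by -3.12e-04 (unadjusted p = 0.223). Of 28 other antimicrobial genes 17 were higher (median t 0.499), and 1 did not overlap between diets, against 2.02% of all genes. Lyz1, a lysozyme, differed by 1.06e-06 (unadjusted p = 0.0521), Saa3, an acute phase protein, by -0.0022 (unadjusted p = 0.0725), and the constitutive beta-defensin Defb1 by 3.95e-04 (unadjusted p = 0.255).

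Of the cell type lists, neutrophil markers were higher in 17 of 27 (median t 0.125) and in 6 of 27 without collagen 4. The shares over all genes were 52.9% and, without collagen 4, 48.8%. Monocyte and macrophage markers were higher in 3 of 18 (median t -0.679), and in 1 of 18 without collagen 4. T cell and NK cell markers were higher in 3 of 9 (median t -0.259), mast cell and basophil markers in 7 of 9 (0.348) and red blood cell markers in 4 of 6 (0.246). Of red blood cell markers 0 of 6 lay at or above the median level, and of neutrophil markers 15 of 27. For T cell and NK cell markers it was 6 of 9, and for mast cell and basophil markers 6 of 9. Whether the markers below that level measured RNA is unknown. Keratinocyte identity genes were higher in 13 of 16 (0.667), skeletal muscle markers in 2 of 21 (-1.24), hair follicle keratins in 2 of 16 (-0.804) and housekeeping controls in 6 of 10 (0.0975). At unadjusted p under 0.05 by limma were 1 of 16 keratinocyte identity genes (Itgb4) and 1 of 21 skeletal muscle markers (Casq1). No gene of the other lists in this paragraph was, against 3.62% of all genes. The diets did not overlap for 1 of 16 keratinocyte identity genes, against 2.02% of all genes, and overlapped for every gene of the other lists here.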

How the data were processed

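Total RNA of powdered dorsal skin was labelled with biotin and hybridised to 1-colour mouse 3' expression arrays, per the labels' protocols. The authors deposited log2 values, a scale inferred from their span of 6.56 to 14.46. R 2.7.2 is named in the submitters' processing notes, while no source read here tells how probes were summarised or arrays normalized. Scanner values and detection calls were not used, so depth here means only the number of arrays.

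Values were used as deposited, without the 64 control probe sets. Gene names came from the platform annotation (34945 of 45037 probe sets with 1 symbol), and each gene was read from its probe set with the highest mean. Diets were compared, collagen minus control, with limma 3.58.1 in R 4.3.3 (lmFit, eBayes, two-sided, no covariate), adjusted by Benjamini-Hochberg over all probe sets. Single members also had an exact permutation test, and pairs of members an exact permutation of array orders, 40320 for 8 arrays and 576 within diets. The limma fit and the exact correlation test were checked on simulated data. The shifts simulated for limma were far larger, in within-group SD, than the members' differences. Whether the fit could find differences of the members' size was not tested. Software further comprised pandas 2.3.3, numpy 2.4.6 and matplotlib 3.10.9. Promoters came from RefSeq tables of GRCm38.p6 (7 of 8 listed genes).

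The members and the 16 gene lists were chosen with earlier results of these data known. The text names all members, up to 4 genes of a list with the smallest p at or above the median level, receptors of members, and the 5 genes most like S100a8, S100a9, Lcn2 and Il1b. Padi4 and Stfa3 were named after their values were seen. Counts and correlations without collagen 4 were also added then. Alternatives were left-out arrays, 2 scalings, a level filter, another variance model, the replicate number as a block, 1 probe set per gene and a Gapdh covariate. No member had another probe set to try, and no protein sequence was used here.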

Additional observations from a re-analysis of the deposited data

Results flagged for a closer look

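S100a8 in the control group had 1 array far from the others. Control 1 read 9.952, while control 2 to 4 lay between 9.940 and 9.941. The gap divided by the group's range was 0.908, above Dixon's critical value for 4 arrays, 0.83 by numerical integration. It was the 1 such case in 14 groups tested (7 members in each diet), and chance flags about 1 group in 20. The next highest ratio was 0.826, for Il1b in controls (control 4), just under the critical value. Camp followed with 0.737 in controls (control 1) and 0.727 with collagen (collagen 4). In the collagen group the same ratio was 0.718 for S100a8 and 0.685 for S100a9, both for collagen 4 and both under the critical value.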

How the results depend on the processing

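No member reached adjusted p under 0.05 in any of the 102 member values computed under alternatives (lowest adjusted p 0.618 by limma), and 82 of these kept their sign. Differences that turned sign under other settings were Defb3 after quantile normalization (-1.10e-06) and S100a8 (-0.00137), Defb3 (-1.39e-06) and Camp (-4.24e-05) with a Gapdh degradation measure (3' minus 5' probe sets) in the model. With 1 array left out the differences ran from -0.0129 to 0.00885 for S100a8, from -0.00878 to 0.0135 for S100a9, from -1.46e-04 to 2.67e-04 for Camp, from -2.91e-05 to 0.00168 for Il1b, from -1.63e-06 to 2.05e-06 for Defb3 and from -4.27e-06 to 8.99e-06 for Defb4. Each lowest value was the one without collagen 4, except for Defb4 (without collagen 3). The count of probe sets past adjusted p 0.05 was 2 after quantile normalization and 0 otherwise, with 1601 at unadjusted p under 0.05 in the data as deposited. The correlation of S100a8 with S100a9 was 0.0938 without the 2 farthest arrays and ran from 0.741 (without collagen 4) to 0.972 with 1 array left out. Causes were not tested. The labels give same-numbered arrays of the diets no link beyond the number. Their correlations of deviations were 0.361, 0.0581, 0.2 and 0.0343, against -0.267 to 0.155 for arrays with different numbers. Whether the numbers reflect a pairing was not tested. With the replicate block, S100a9 differed by 0.00466 (unadjusted p = 0.666) and no call changed. The smallest unadjusted p values of members by limma were then 0.106 for Lcn2 and 0.146 for Il1b, against 0.199 and 0.525 without the block. The low-level filter left Camp, Defb3 and Defb4 without a value. The number of arrays and the unknown signal over background limit what these values can show.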
